A study of Homo sapiens with 32 samples.

Results

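The secretory pathway transcripts measured here encode the machinery that moves new proteins into the endoplasmic reticulum (ER), trims and glycosylates them, helps them fold, and carries them between the ER and the Golgi apparatus in coated vesicles. They were chosen by a rule on gene symbols, with earlier results of these data known. The rule covers subunits of the signal recognition particle (SRP) and its receptor, the SEC61 translocon, signal peptidase and oligosaccharyltransferase. It also covers ER lectin chaperones and PDIA-type disulfide isomerases with AGR2, and the COPII and COPI coats. The KDEL receptors, the TMED (p24) family, LMAN1 and the SEC22 proteins complete it. The rule found 95 transcripts of 74 genes among the 12966 transcripts of 10622 named genes that both decay rate tables held. A further 6 transcripts that met the rule had a rate in only 1 line and were not compared, namely KDELR2 NM_001100603, SEC22C NM_001201572 and TMED7-TICAM2 NM_001164468 in MDA-LM2, and PDIA5 NM_006810, SEC23B NM_032986 and SSR4 NM_006280 in MDA-MB-231.

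Decay was followed in a pair of lines: MDA-MB-231, here the parental line, is an established line from a human breast cancer, and MDA-LM2 is its lung-metastatic derivative. The labels name no agent besides the RNA label. Both lines received 4-thiouridine (4sU), a uridine analogue that marks newly made RNA, for 2 h, followed by medium with excess uridine, and labelled RNA was collected 0, 2, 4 and 7 h later. The labels list 32 libraries, 4 for each line and time, and the deposited tables reduce them to 4 rates per transcript and line, 1 for each replicate time series. The 4 series of a line carry the labels 1_1, 1_2, 2_1 and 2_2, and all values below follow that order. Nothing states that the series are separate cultures, and p-values here measure the spread between series, which may be technical. The tables hold rates and no abundances, so marker levels and read depth were not analysed here. The RNA came from bulk cultures, in which fewer cells of a type and less RNA per cell cannot be told apart.

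Proteins destined for secretion or for membranes are recognised by SRP as they leave the ribosome and are handed to the SEC61 channel. Signal peptidase removes the targeting peptide, oligosaccharyltransferase attaches N-linked glycans, and calnexin, calreticulin and disulfide isomerases assist folding. COPII vesicles then carry cargo out of the ER, and COPI vesicles bring escaped ER residents and cycling receptors back. Many of these genes are known targets of the unfolded protein response, which raises their transcription when folding capacity in the ER is short.

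The deposited rate is positive where the labelled transcript fell with time and negative where it rose relative to the authors' scale. Neither its log base nor its scaling is given in the sources used here. For this reason half-lives were not computed. A transcript called slower in MDA-LM2 has a lower rate there at a Benjamini-Hochberg adjusted p below 0.05 in limma over all 12966 transcripts (4 series against 4, two-sided). Within each line, series with the same second number were more alike than the others. Across transcripts Spearman's rho was 0.778 to 0.812 for such pairs in MDA-LM2, against 0.549 to 0.563 for other pairs, and 0.622 to 0.763 against 0.213 to 0.326 in the parental line. Each call named below is therefore followed by its adjusted p from a second limma fit, added after this was seen, that allows for an estimated correlation of 0.46 between such series.

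Sequence elements in the 3′ untranslated region (UTR) are known to influence mRNA decay, and the transcripts called different in rate are shown first with the elements found there. An AU-rich heptamer, TATTTAT, was found in the 3′ UTR of 3 of these 11 (27.3%), and AGR2 alone held a match to the Pumilio motif TGTANATA (9.09%). The shares were 31.8% and 27.0% among the 11711 transcripts linked to a GENCODE 29 transcript with a coding sequence. Each site is printed with 8 bases of flank from GENCODE 29 transcripts on the coding strand, with the motif in capitals.
KDELR2 (NM_006854, base 439 of the 3′ UTR): ttccactaTATTTATtttttggc
STT3B (NM_178862, base 499): ttgaattaTATTTATtttcatgt
TMED2 (NM_006815, base 1508): tttctgagTATTTATacctatta
AGR2 (NM_006408, base 1026): tatggtgcTGTATATAatgctttg
These are matches of letters in the annotated transcripts, not measured binding sites.

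Secretory pathway transcripts had low decay rates in both lines. Their median rate was 0.0546 ± 0.0113 in MDA-LM2 and 0.113 ± 0.0213 in the parental line (mean ± SD of the median of 95 transcripts over 4 series), against 0.159 ± 0.0115 and 0.182 ± 0.0156 for all transcripts. In both lines at once, 60 of 95 (63.2%) lay below the median of the table, compared with 33.8% of all transcripts. The lowest 25% of the table in both lines held 36 of them (37.9%), against 12.1% of all transcripts. The mean rate was lower in MDA-LM2 for 75 of 95 (78.9%), against 66.2% of all transcripts, and after each series was centred on its own median for 65 of 95 (68.4%), against 59.2%. The median of the differences, taken as MDA-LM2 minus the parental line throughout, was -0.0716, and that of all transcripts was -0.0538.

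Within the series of second number 1 the median difference of the 95 transcripts was -0.0877, and within second number 2 it was -0.0388. Both were negative for 49 transcripts (51.6%, against 39.4% of all transcripts), both positive for 11, and of opposite sign for 35 (36.8%, against 41.7% of all transcripts).

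Of the 95 transcripts, 10 (10.5%) were called slower in MDA-LM2, against a background of 6.04% of all transcripts tested, and 1 (1.05%) was called faster, against a background of 1.90%. The slower ones were AGR2, STT3B, KDELR2, TMED2, PDIA6, PDIA4, CALR, SPCS3, SRPRB and SEC61G (NM_014302), and the faster one was SEC16A. All 4 MDA-LM2 rates lay below all 4 MDA-MB-231 rates for 30 transcripts (31.6%, background 16.6%) and above them for 3 (3.16%, background 5.83%), namely KDELR1, SEC16A and SEC61A2.

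With the correlation between like series, 5 remained called slower (5.26%, background 2.97%), namely AGR2, STT3B, KDELR2, TMED2 and PDIA6, and 0 faster (background 0.285%; 1 higher at an unadjusted p below 0.05). These 5 also passed in each of 8 fits that left out 1 series. Without series 1_1, 2_1 or 2_2 of MDA-LM2 the number called slower was 5 of 95, against 457, 461 and 480 of all 12966 transcripts. Without series 1_2 of MDA-MB-231 it was 15, against 1082. When only transcripts with all 8 rates within 1 of 0 entered the fit with that correlation, limma called 0 of 70 members and 0 of 8496 transcripts in either direction. In that fit 21 members were lower and 1 higher at an unadjusted p below 0.05, as were 990 and 518 of all transcripts. Without the correlation limma called 11 of the 70 members slower and 1 faster, and 564 and 289 of the 8496 transcripts. After each series was centred on its median, 8 members were called slower (8.42%, background 4.80%) and 3 faster (3.16%, background 3.41%), the latter SEC16A, COPZ1 and KDELR1. The unequal-variance statistic called 8 slower (8.42%, background 4.49%) and 1 faster (1.05%, background 1.07%).

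**Figure D1:**
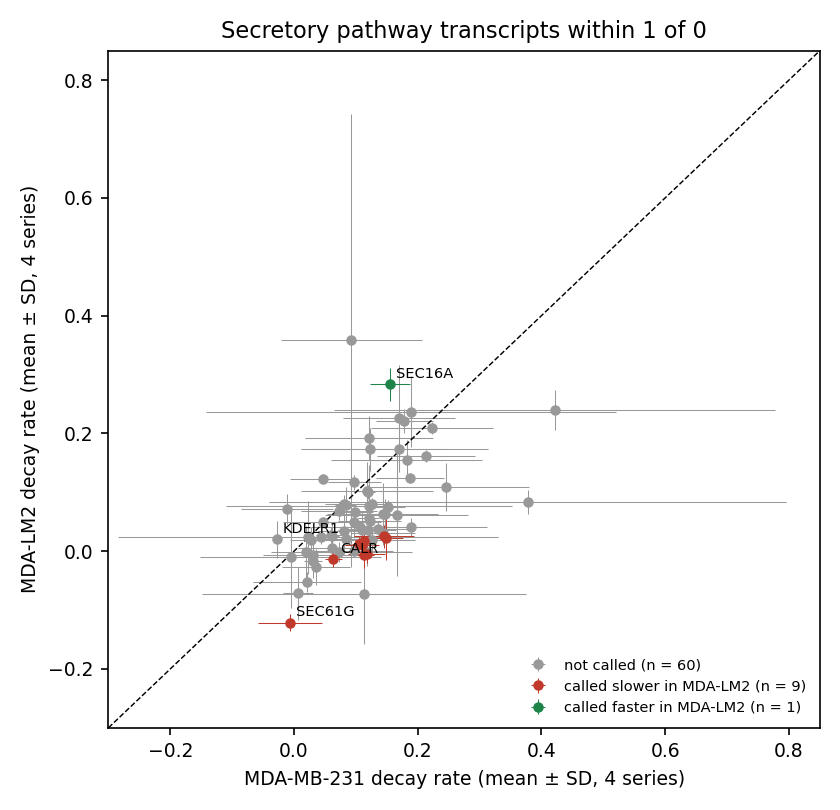
Mean decay rate in MDA-LM2 (vertical axis) against MDA-MB-231 (horizontal axis), in the deposited unit, for the 70 secretory pathway transcripts with all 8 rates within 1 of 0; bars are SDs over 4 series and the dashed line marks equal rates. Of these, 56 lie below the line; 9 called slower in MDA-LM2 are red and SEC16A, called faster, is green.

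SRP binds signal peptides on the ribosome, and its receptor docks the complex at the ER. In the 13 transcripts of this group the median rate was 0.0852 ± 0.0285 in MDA-LM2 and 0.171 ± 0.0442 in the parental line, and 10 had a lower mean in MDA-LM2, also after centring. SRPRB, the membrane-anchored subunit of the receptor, was the 1 transcript called slower (7.69% of the group, background 6.04%). Its rates were 0.00556, 0.0530, 0.0231 and 0.0195 in MDA-LM2 and 0.0734, 0.167, 0.173 and 0.169 in the parental line. The groups did not overlap, although series 1_1 of MDA-MB-231 stood below the other 3. The difference was -0.120 ± 0.0266 (SE; adjusted p = 0.0399; adjusted p = 0.205 with an estimated correlation, and 0.0572 after centring). Of 8 fits without 1 series the call held in 1, that without series 1_1 of MDA-MB-231, and in the others the adjusted p was 0.0647 to 0.123.

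SRP14, part of the domain that pauses elongation, had the lowest mean rate of the group among transcripts within 1 of 0, at -0.0274 ± 0.0307 in MDA-LM2 and 0.0354 ± 0.0546 in the parental line (adjusted p = 0.257). SRP68, a protein of the signal-binding domain, had the highest mean over all 8 series, at 0.221 ± 0.0206 and 0.179 ± 0.0453 (adjusted p = 0.338). SRP54, the subunit that binds the signal peptide, had 0.0404 ± 0.0165 and 0.190 ± 0.122 (adjusted p = 0.164). Apart from SRPRB, no transcript of the group passed the test.

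The translocon group joins the SEC61 channel, its partners SEC62 and SEC63 and the translocon-associated SSR proteins. Its 10 transcripts had median rates of 0.0532 ± 0.0260 in MDA-LM2 and 0.0852 ± 0.0149 in the parental line, and 9 had a lower mean in MDA-LM2 (7 after centring). SEC61G, the small gamma subunit of the channel, was called slower through transcript NM_014302 (1 of 10, 10.0%, background 6.04%). This transcript had rates of -0.137, -0.104, -0.116 and -0.128 in MDA-LM2 and 0.000215, 0.00287, 0.0476 and -0.0766 in the parental line. Every MDA-LM2 series was below 0 and below every parental series. The difference was -0.115 ± 0.0263 (adjusted p = 0.0445; adjusted p = 0.202 with an estimated correlation, and 0.0585 after centring). The call held without series 2_2 of MDA-MB-231 and was lost without any of the other 7 series (adjusted p 0.0705 to 0.129). Another SEC61G transcript, NM_001012456, had -0.0508, 0.0965, -0.118 and 0.256 in MDA-LM2. In the parental line it had 9.93, 3.31, 0.444 and 9.80, and it did not pass (adjusted p = 0.173).

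SEC61A1, the pore-forming alpha subunit, had nearly the same mean in both lines, 0.0809 ± 0.0141 and 0.0814 ± 0.0319 (difference -0.000516 ± 0.0197, adjusted p = 0.989). Its paralog SEC61A2 had 0.290, 0.413, 0.272 and 0.563 in MDA-LM2 and 0.144, -1.63, -0.0457 and 0.0486 in the parental line. All MDA-LM2 rates of SEC61A2 were higher, 1 MDA-MB-231 series stood far below the rest, and the difference of 0.755 ± 0.395 did not pass (adjusted p = 0.283). SEC63, a J-domain protein that recruits the chaperone BiP to the channel, had the highest mean of the group within 1 of 0, at 0.162 ± 0.0101 and 0.213 ± 0.0792 (adjusted p = 0.428). The SSR transcripts SSR1, SSR2 and SSR3 differed by -0.0656, -0.0463 and -0.0473, and none passed.

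Signal peptidase cleaves the targeting peptide inside the ER. Its 5 transcripts had median rates of 0.0269 ± 0.0200 in MDA-LM2 and 0.128 ± 0.0332 in the parental line, and the mean was lower in MDA-LM2 for 3 of 5 (2 after centring). The median of the differences per transcript was smaller than that gap, -0.0217, and 0.00145 after centring. SPCS3, an accessory subunit, was called slower. Its rates were -0.0193, 0.0671, 0.0106 and 0.0284 in MDA-LM2 and 0.174, 0.109, 0.155 and 0.155 in the parental line. The groups did not overlap, and the difference was -0.127 ± 0.0238 (adjusted p = 0.0224; adjusted p = 0.0964 with an estimated correlation). The call held without series 1_2 of either line and was lost without any of the other 6 (adjusted p 0.0515 to 0.0794). SEC11A, a catalytic subunit, showed no overlap either, at 0.0626 ± 0.0268 and 0.148 ± 0.0388, but did not pass (adjusted p = 0.0892; 0.0271 without series 1_2 of MDA-MB-231). SPCS2 and SPCS1, the other accessory subunits, differed by 0.00265 ± 0.0321 and -0.0217 ± 0.0351.

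Oligosaccharyltransferase transfers the preassembled glycan to asparagine residues of the growing chain. All 9 transcripts had a lower mean in MDA-LM2, 6 of them after centring, with median rates of 0.0231 ± 0.0191 and 0.0595 ± 0.00615. STT3B, a catalytic subunit known for modifying sites that the translocon-bound enzyme skips, was called slower (1 of 9, 11.1%, background 6.04%). Its rates were 0.0122, -0.0179, 0.0118 and -0.0306 in MDA-LM2 and 0.0994, 0.104, 0.115 and 0.134 in the parental line. The gap between the lines exceeded the range within either. The difference was -0.119 ± 0.0163 (adjusted p = 0.00583; adjusted p = 0.0260 with an estimated correlation).

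STT3A, the catalytic subunit of the enzyme bound to the translocon, had -0.0383, 0.0178, -0.0354 and -0.0115 in MDA-LM2 and 0.0105, 0.0274, 0.0429 and 0.0395 in the parental line. The lines overlapped, and the difference of -0.0469 ± 0.0169 did not pass (adjusted p = 0.138). OSTC, a subunit of the STT3A enzyme, lay just outside the threshold at -0.0772 ± 0.0187 (adjusted p = 0.0531) and passed without series 1_1 of MDA-MB-231 (adjusted p = 0.0334). DAD1, a small subunit shared by both enzymes, had the lowest mean of the group over all 8 series, -0.0526 ± 0.0166 in MDA-LM2 and 0.0211 ± 0.0880 in the parental line (adjusted p = 0.298). In DAD1 the MDA-MB-231 series 1_2 was at -0.110 and the other 3 between 0.0551 and 0.0771; without that series the difference was -0.117 and passed (adjusted p = 0.00464), against an adjusted p of 0.272 to 0.586 in the other alternatives.

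Lectin chaperones and disulfide isomerases bind new glycoproteins and form their disulfide bonds. This was the group with the most calls: 4 of 7 transcripts were called slower (57.1%, background 6.04%). With the estimated correlation 2 were called slower (28.6%, background 2.97%). All 7 had a lower mean in MDA-LM2, also after centring. The median rate was -0.00727 ± 0.0134 in MDA-LM2 and 0.0970 ± 0.0162 in the parental line. PDIA6, a disulfide isomerase, had -0.0202, 0.00841, -0.0147 and 0.00570 in MDA-LM2 and 0.131, 0.0899, 0.152 and 0.0962 in the parental line. All MDA-LM2 series lay near 0 and all MDA-MB-231 series well above it. The difference was -0.123 ± 0.0185 (adjusted p = 0.00949; adjusted p = 0.0268 with an estimated correlation).

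PDIA4, another isomerase, had 0.00835, 0.0251, 0.00601 and 0.00597 in MDA-LM2 and 0.102, 0.0756, 0.126 and 0.136 in the parental line. The difference was -0.0984 ± 0.0170 (adjusted p = 0.0164; adjusted p = 0.119 with an estimated correlation). CALR, the soluble lectin calreticulin, had -0.0231, 0.00313, -0.0237 and -0.0104 in MDA-LM2 and 0.0460, 0.0642, 0.0812 and 0.0637 in the parental line. Neither transcript overlapped between the lines. The difference for CALR was -0.0773 ± 0.0134 (adjusted p = 0.0167; adjusted p = 0.0904 with an estimated correlation). PDIA4 and CALR each lost the call without series 1_1, 2_1 or 2_2 of MDA-LM2 (adjusted p 0.0570 to 0.0685) and kept it in the other 5 such fits.

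PDIA3, the isomerase that works with both lectins, also showed no overlap, with a difference of -0.0746 ± 0.0200 that did not pass (adjusted p = 0.0736). CANX, the membrane lectin calnexin, differed by -0.0554 ± 0.0284 in NM_001746 (adjusted p = 0.278). Its other transcript NM_001024649 had the lowest mean of the group within 1 of 0 across both lines, at -0.0735 ± 0.0844 and 0.113 ± 0.262 (adjusted p = 0.371). AGR2, an ER isomerase known for mucin folding, had rates of -0.0216, -0.310, -0.159 and -0.132 in MDA-LM2 and 9.21, 9.47, 9.28 and 9.28 in the parental line (adjusted p = 8.3e-05; adjusted p = 0.00044 with an estimated correlation). The MDA-MB-231 values belong to a separate cluster of rates above 8, taken up below, so the size of this difference is not comparable with the others.

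**Figure D2:**
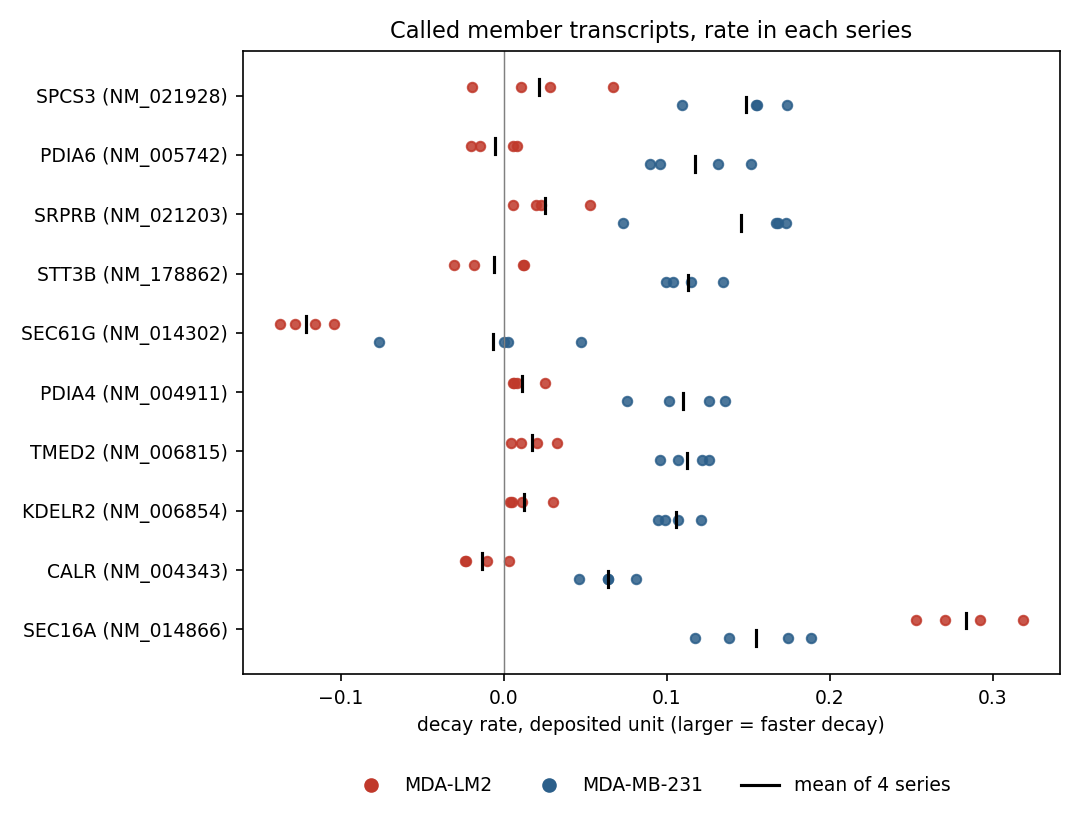
Decay rate in each series (horizontal axis, deposited unit) for the 10 called transcripts with all rates within 1 of 0; points are single series, ticks the mean of 4. In 9 rows all MDA-LM2 points lie left of all MDA-MB-231 points, and in the SEC16A row they lie right of them.

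COPII coats form vesicles at ER exit sites: SAR1 starts assembly, SEC23 and SEC24 make the inner coat, SEC13 and SEC31 the outer coat, and SEC16A organises the site. The 21 transcripts of this group had the highest median in MDA-LM2 of all role groups, 0.114 ± 0.0126, and 0.127 ± 0.0139 in the parental line. limma and the unequal-variance statistic called 0 slower (1 lower at an unadjusted p below 0.05 in limma) and 1, SEC16A, faster. That was 4.76% of the group, against a background of 1.90% in limma and 1.07% with the unequal-variance statistic. The mean was lower in MDA-LM2 for 14 of 21 and for 11 after centring. SEC16A had 0.318, 0.292, 0.271 and 0.253 in MDA-LM2 and 0.175, 0.138, 0.189 and 0.118 in the parental line. Every MDA-LM2 rate was higher. The difference was 0.129 ± 0.0250 (adjusted p = 0.0250; adjusted p = 0.108 with an estimated correlation), and the call was lost without any 1 MDA-LM2 series or series 2_2 of MDA-MB-231 (adjusted p 0.0506 to 0.0780).

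SEC23A differed by -0.0967 ± 0.0256 with no overlap and did not pass (adjusted p = 0.0697), and SEC23B (NM_032985) by -0.0270 ± 0.0605. SAR1A (NM_020150) had 0.101 ± 0.0117 and 0.120 ± 0.0105, a difference of -0.0192 ± 0.0139 (adjusted p = 0.396). SAR1B (NM_016103) had 0.0836 ± 0.0201 in MDA-LM2, and in the parental line its rates were 0.118, 0.246, 0.148 and 0.999. Series 2_2 stood far above the other 3 (SD 0.418), and the difference of -0.294 ± 0.194 did not pass (adjusted p = 0.354). SEC13 had the lowest mean of the group within 1 of 0, at 0.0275 ± 0.0135 and 0.0597 ± 0.0237 (adjusted p = 0.274).

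The 4 SEC24 paralogs select different cargo. Among transcripts within 1 of 0, SEC24A (NM_021982) had 0.209 ± 0.0103 and 0.224 ± 0.0988, SEC24B (NM_001042734) 0.237 ± 0.0599 and 0.189 ± 0.331. SEC24C (NM_198597) had 0.358 ± 0.384 and 0.0926 ± 0.114, and SEC24D 0.192 ± 0.0374 and 0.121 ± 0.104. None passed the test, and the adjusted p ranged from 0.383 for SEC24C to 0.856 for SEC24A. In SEC24C, series 2_1 of MDA-LM2 was at 0.931 and the other 3 between 0.111 and 0.211.

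Cargo and retrieval receptors cycle between the ER and the Golgi, and SEC22B is a SNARE that fuses their carriers. The 21 transcripts had median rates of 0.0713 ± 0.0194 in MDA-LM2 and 0.128 ± 0.0195 in the parental line. limma called 2 slower (9.52%, background 6.04%) and 0 faster (1 higher at an unadjusted p below 0.05). The unequal-variance statistic called 3 slower (background 4.49%) and 0 faster. The mean was lower in MDA-LM2 for 17 of 21, before and after centring. The lines did not overlap for 10 transcripts lower in MDA-LM2 (47.6%, background 16.6%) and for 1 higher, KDELR1 (background 5.83%). TMED2, a p24 protein of COPI and COPII vesicles, had 0.00449, 0.0328, 0.0106 and 0.0206 in MDA-LM2 and 0.0956, 0.107, 0.126 and 0.122 in the parental line. All 4 MDA-MB-231 rates stood well above every MDA-LM2 rate. The difference was -0.0954 ± 0.0139 (adjusted p = 0.00800; adjusted p = 0.0461 with an estimated correlation).

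KDELR2, a receptor that returns ER residents carrying a KDEL signal, had 0.00519, 0.0302, 0.00382 and 0.0110 in MDA-LM2 and 0.0946, 0.107, 0.121 and 0.0988 in the parental line. Again the lines were well separated. The difference was -0.0929 ± 0.0133 (adjusted p = 0.00737; adjusted p = 0.0437 with an estimated correlation). Its paralog KDELR1 went the other way, with -0.0148, 0.0252, 0.0104 and 0.0590 in MDA-LM2 and -0.0350, -0.0330, -0.0250 and -0.0199 in the parental line. All MDA-LM2 rates of KDELR1 were higher, but the difference of 0.0482 ± 0.0175 did not pass (adjusted p = 0.141), while after centring it was 0.0713 and passed (adjusted p = 0.0476). The difference between the paralogs' contrasts was not tested.

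The third receptor, KDELR3, had 2 transcripts whose MDA-MB-231 rates fell far outside the range of the others. NM_006855 had 0.131, 0.211, 0.135 and 0.182 in MDA-LM2 and 9.78, 0.259, 9.76 and 0.331 in the parental line. NM_016657 had 0.132, 0.231, 0.162 and 0.252 against 0.189, -8.41, 0.253 and 0.257. In MDA-LM2 the transcripts had similar rates in every series, and in MDA-MB-231 they differed by more than 8 in 3 of 4 series.

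LMAN1, a lectin receptor for clotting factors among other cargo, had rates from -0.00637 to 0.0140 in MDA-LM2 and from 0.0401 to 0.175 in the parental line without overlap (difference -0.0962 ± 0.0316, adjusted p = 0.113). TMED9 lay just outside the threshold at -0.0648 ± 0.0161 (adjusted p = 0.0581). TMED10, the partner of TMED2, differed by -0.0743 ± 0.0254 (adjusted p = 0.122). TMED3, another p24 protein, had the lowest mean of the group over all 8 series within 1 of 0, -0.0717 ± 0.0451 and 0.00593 ± 0.0242 (adjusted p = 0.113). SEC22A, an ER protein of the SEC22 family, had the highest, 0.240 ± 0.0331 and 0.421 ± 0.356 (adjusted p = 0.488).

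COPI coats assemble on the Golgi from COPA, COPB1, COPB2, COPE, COPG and COPZ subunits with others. The 9 transcripts had median rates of 0.0360 ± 0.0124 in MDA-LM2 and 0.107 ± 0.0524 in the parental line, and 0 were called in either direction by limma or by the unequal-variance statistic (3 lower and 1 higher at an unadjusted p below 0.05 in limma). The mean was lower in MDA-LM2 for 6 of 9 (66.7%, against 66.2% of all transcripts). After centring it was lower for 5 (55.6%, against 59.2%). COPA, the alpha subunit, had 0.0308, 0.0494, 0.0222 and 0.0191 in MDA-LM2 and 0.176, 0.0969, 0.199 and 0.102 in the parental line. The lines did not overlap, and the difference of -0.113 ± 0.0273 lay just outside the threshold (adjusted p = 0.0530). COPB2 differed by -0.0837 ± 0.0243 (adjusted p = 0.0881). The COPB1 transcripts went in different directions, and none passed. NM_016451 differed by 0.0825, NM_001144062 by -0.0797 and NM_001144061 by -1.09 (adjusted p = 0.233, 0.327 and 0.278). COPZ1, the zeta subunit, was higher in MDA-LM2, at 0.123 ± 0.00861 against 0.0468 ± 0.0540 (difference 0.0760 ± 0.0277, adjusted p = 0.142, 0.0358 after centring, and 0.0267 without series 2_1 of MDA-MB-231).

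The gamma subunits COPG1 and COPG2 can stand in for each other in the coat. COPG1 had 0.0507 ± 0.0262 and 0.122 ± 0.0512 (difference -0.0716 ± 0.0289, adjusted p = 0.180). COPG2 had 0.0195 ± 0.0220 and 0.0269 ± 0.0330 (difference -0.00743 ± 0.0209, adjusted p = 0.823).

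**Figure D3:**
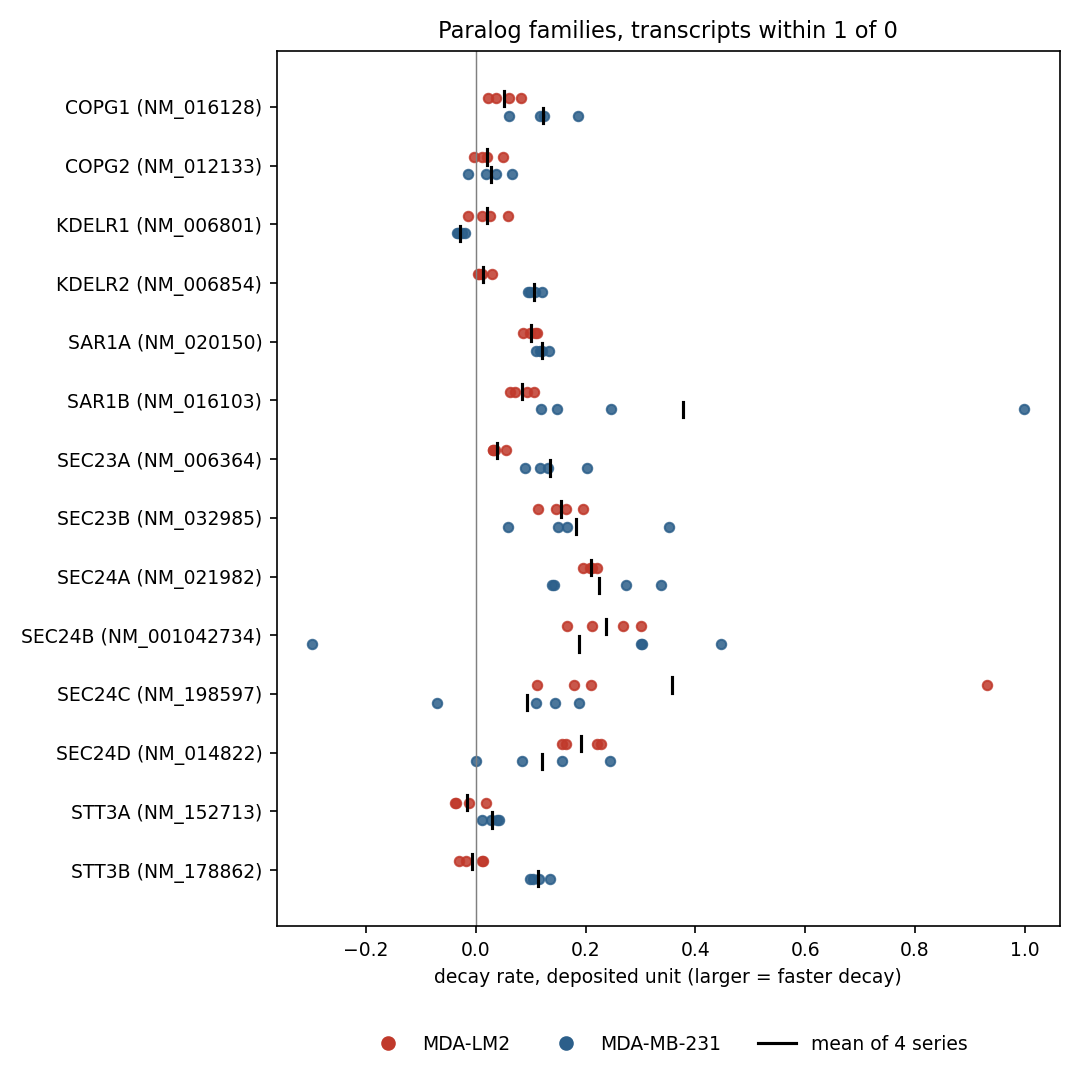
Decay rate in each series (horizontal axis, deposited unit) for paralogs of the coat, receptor and oligosaccharyltransferase genes, restricted to transcripts with all 8 rates within 1 of 0, which leaves out KDELR3; points are single series, ticks the mean of 4. In MDA-MB-231 KDELR1 lies below 0 and KDELR2 above it, and STT3B is more widely separated between lines than STT3A.

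**Figure D4:**
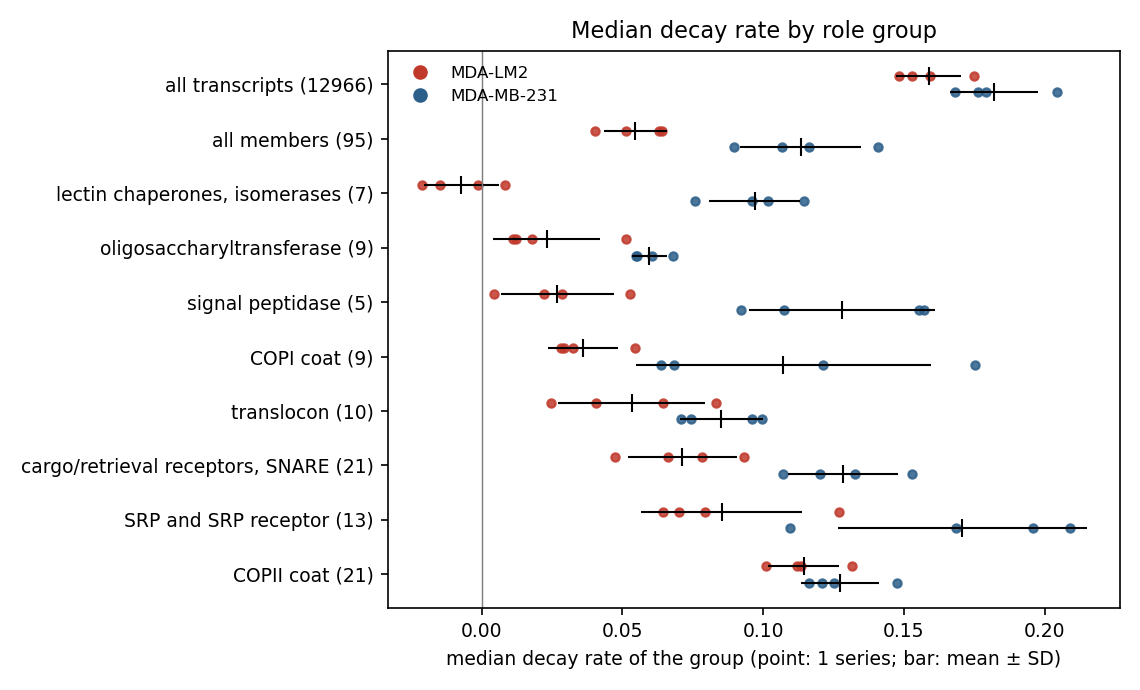
Median decay rate of each role group of secretory pathway transcripts (horizontal axis, deposited unit), with 1 point per series, the mean as a tick and the SD over 4 series as a line; numbers in brackets are transcripts. Every MDA-LM2 median lies below every MDA-MB-231 median in the lectin chaperone, signal peptidase, oligosaccharyltransferase, COPI and cargo receptor groups and over all members. A gap between group medians need not equal the median of the differences per transcript. In the order of these groups the latter was -0.0984, -0.0217, -0.0469, -0.0716 and -0.0954. After centring it was -0.0753, 0.00145, -0.0238, -0.0485 and -0.0723, against -0.0307 for all transcripts. In the SRP, translocon and COPII groups the medians of the lines overlap. Those of the COPII group lie close together, at 0.114 and 0.127.

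Rates beyond 1 either side of 0 came mostly from MDA-MB-231: 45 of 380 rates (11.8%) against 14 of 380 (3.68%) in MDA-LM2. In the whole table the shares were 18.3% and 4.24%. Among members 22 of 380 parental rates and 2 of 380 in MDA-LM2 lay above 8, against 4839 and 766 of 51864 in the whole table. All 4 MDA-MB-231 rates lay beyond 1 for 2 of 95 members, AGR2 and SRP19 (NM_001204194), against 719 of 12966 transcripts. SRP19, an assembly subunit of SRP, had in that transcript 9.69, 9.65, 9.68 and 9.64 in MDA-MB-231 and -8.08, 9.45, 0.000733 and 9.50 in MDA-LM2. Its main transcript NM_003135 had 0.225, 0.140, 0.175 and 0.151 in MDA-LM2 and -0.0122, 0.292, 0.122 and 0.278 in the parental line, a difference of 0.00288 ± 0.0701. For genes with 1 transcript, 5 of 57 transcripts (8.77%) had a rate beyond 1, and for genes with several, 20 of 38 (52.6%); in all coding rows the shares were 26.0% and 51.8%.

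Where only the 70 members with all 8 rates within 1 of 0 were taken, the median rate was 0.0414 ± 0.0100 in MDA-LM2 and 0.101 ± 0.0220 in the parental line, against 0.146 and 0.153 for the 8496 such transcripts of the table. The mean was lower in MDA-LM2 for 56 of 70 (80.0%), against 57.5%.

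Genes of the pathway that the symbol rule leaves out were counted from lists written from general knowledge. Of 195 transcripts, 18 were called slower (9.23%, background 6.04%) and 2 faster (1.03%, background 1.90%). With the estimated correlation 6 were called slower (3.08%, background 2.97%) and 0 faster. Assembly of the glycan precursor (24 transcripts) and the ER membrane complex with tail-anchor insertion (19) gave 0 calls by limma or the unequal-variance statistic; at an unadjusted p below 0.05 in limma, 1 and 4 transcripts were lower and 1 and 0 higher. MAGT1, an oxidoreductase subunit of the STT3B enzyme, was the 1 call among 4 transcripts of other oligosaccharyltransferase subunits. Its rates were -0.0135, -0.0181, -0.0208 and -0.0125 in MDA-LM2 and 0.0313, 0.143, 0.0874 and 0.0874 in the parental line (difference -0.104 ± 0.0236, adjusted p = 0.0438; adjusted p = 0.187 with an estimated correlation).

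Among 43 transcripts of other ER folding enzymes, 2 were called slower (4.65%, below the background of 6.04%), and 1 with the estimated correlation (2.33%, background 2.97%). PRDX4, an ER peroxiredoxin, had -0.0767, -0.0807, -0.101 and -0.0944 in MDA-LM2 and 0.0734, 0.0667, 0.0809 and 0.108 in the parental line, a difference of -0.170 ± 0.0137 (adjusted p = 0.00028; adjusted p = 0.00321 with an estimated correlation). The median of that list was 0.0533 ± 0.0162 in MDA-LM2 and 0.102 ± 0.0155 in the parental line, close to that of the members. HYOU1, an ER chaperone, differed by -0.0730 ± 0.0148 (adjusted p = 0.0296; adjusted p = 0.163 with an estimated correlation). Among 30 transcripts of ER-associated degradation, 5 were called slower (16.7%, background 6.04%), and 2 with the estimated correlation (6.67%, background 2.97%). UBE2J2 kept the call in transcripts NM_058167 and NM_194315 (adjusted p = 0.00142 and 0.00257 with an estimated correlation). Their mean rates were 0.361 and 0.382 in MDA-LM2, and 2.36 and 2.83 in the parental line, beyond the range of most members. One that lost the call was EDEM1, a mannosidase-like protein, with a difference of -0.0819 ± 0.0139 (adjusted p = 0.0152, and 0.0709 with an estimated correlation).

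Partners of the coats gave 6 slower (15.8%, background 6.04%) and 1 faster (2.63%, background 1.90%) among 38 transcripts, and 2 slower (5.26%, background 2.97%) and 0 faster with the estimated correlation. ARF4, a small GTPase of Golgi coats, differed by -0.109 ± 0.0161 (adjusted p = 0.00838, and 0.0419 with an estimated correlation). MCFD2 (NM_001171509) also kept the call (adjusted p = 0.00037 with an estimated correlation), with a mean of 0.306 in MDA-LM2 and 9.63 in the parental line. CNIH1, a COPII cargo receptor, differed by -0.109 ± 0.0200 (adjusted p = 0.0206; adjusted p = 0.0803 with an estimated correlation). SNAREs and tethers gave 4 slower (10.8%) and 1 faster (2.70%) among 37, against the same background. With the estimated correlation 1 was slower (2.70%, background 2.97%) and 0 faster. The call that held was TRAPPC1 (NM_001166621), with a mean of 0.0971 in MDA-LM2 and 2.88 in the parental line (adjusted p = 0.00073 with an estimated correlation). NAPG, which helps disassemble SNAREs, differed by -0.127 ± 0.0201 (adjusted p = 0.0115, and 0.0962 with an estimated correlation). Clathrin, the coat of a different vesicle route, gave 3 slower among 37 (8.11%, background 6.04%) and 1 with the estimated correlation (2.70%, background 2.97%). The call that held was AP1G2, with a difference of -0.219 ± 0.0214 (adjusted p = 0.00088, and 0.00583 with an estimated correlation). CLTC, the clathrin heavy chain, differed by -0.0749 ± 0.0156 (adjusted p = 0.0327, and 0.167 with an estimated correlation).

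Sequence features were set beside the rates as a description. Among 92 members linked to a GENCODE 29 transcript, the heptamer occurred in 19 (20.7%), against 31.8% of 11711 transcripts, and the Pumilio motif in 16 (17.4%), against 27.0%. The 3′ UTR had a median length of 727.5 bases in the members and 1007 in all transcripts, and the coding sequence 883.5 and 1362. Members with the heptamer had a median rate of 0.0502 in MDA-LM2 and 0.113 in the parental line, and those without it 0.0418 and 0.120.

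Promoter windows, 250 bases before to 50 after the start, were matched for 65 of the 74 genes from RefSeq on GRCh38.p14. The ER stress response element, bound by ATF6 with NF-Y and spelled CCAAT and CCACG with 9 bases between them, was searched on both strands. It was found in the windows of CALR, CANX and PDIA6, 3 of 65 (4.62%), against 0.187% of the 8579 measured genes with a window and 0.0916% of 27305 genes in all. The element TGACGTGG, a letter string of the unfolded protein response, was in 10 of 65 (15.4%), against 1.25% of measured genes and 0.927% in all, among them the coat genes COPA, COPB1, COPB2, SEC16A, SEC23A and SEC24A. Of the 4 transcripts of genes with the first element 2 were called slower, against 8 of the 91 other members. Neither CANX transcript was called. Of the 17 transcripts of genes with the second, 0 were called slower, against 10 of the 78 other members, and 1, SEC16A, was called faster. In both counts the other members include transcripts of genes without a matched window, which were not searched. The background was 6.04% slower and 1.90% faster. A link between the elements and the rates was not tested. The windows of CALR and PDIA6 are shown with the first element in capitals. A promoter match describes transcription start regions and was not measured in these rates.
PDIA6 (GRCh38.p14, chr2:10812736-10813035, minus strand): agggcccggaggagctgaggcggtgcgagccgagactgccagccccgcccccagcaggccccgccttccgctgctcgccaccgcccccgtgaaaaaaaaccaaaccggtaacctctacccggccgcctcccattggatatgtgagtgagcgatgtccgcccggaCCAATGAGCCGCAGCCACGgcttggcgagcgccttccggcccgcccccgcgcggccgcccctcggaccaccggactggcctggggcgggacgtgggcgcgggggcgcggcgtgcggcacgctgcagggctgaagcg
CALR (GRCh38.p14, chr19:12938359-12938658, plus strand; the match is on the opposite strand): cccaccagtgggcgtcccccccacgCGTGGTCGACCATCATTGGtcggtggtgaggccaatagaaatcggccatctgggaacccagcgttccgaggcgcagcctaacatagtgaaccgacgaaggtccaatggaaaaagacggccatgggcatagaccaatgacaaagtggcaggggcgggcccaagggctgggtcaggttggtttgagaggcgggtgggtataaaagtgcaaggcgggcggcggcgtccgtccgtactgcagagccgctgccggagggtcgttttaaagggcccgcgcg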

How the data were processed

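The authors deposited a decay rate per transcript and series for each line, per the file headers, in a unit whose log base and scaling the sources used here do not give, and a differential score per transcript. Within 0.000394 the score was 1 minus the unequal-variance p, positive where MDA-LM2 had the lower mean. TopHat, Cufflinks and hg18 are named, with no role, in the submitters' processing notes. Rates of 12966 transcripts in both tables were fitted with limma 3.58.1 in R 4.3.3 (variance trend, two-sided, Benjamini-Hochberg over all transcripts, threshold 0.05, no block). The correlation fits used duplicateCorrelation. Symbols were matched to RefSeq's GRCh38.p14 gene table (12644 accessions) and GENCODE 29 (117); 205 had none. In simulated data with independent noise the fit recovered 13% of differences of 0.1 and 66% of differences of 0.3. Of its calls there, 4.82% were false. The simulation held no correlation between like series, so these shares need not hold for the calls reported here. Members and lists were chosen with earlier results of these data known.

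Named are all called members and measured paralogs of SEC61A, SEC24, SEC23, SAR1, COPG, COPZ, KDELR and STT3. Members with all 4 rates of a line beyond 1 are also named. So are the highest and lowest mean rate within 1 of 0 in each role group. From each other list some, not all, of the 3 calls of smallest p are named. Others were named after their values were seen. Depth is unknown. Alternatives are in the closing section.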

Additional observations from a re-analysis of the deposited data

Results flagged for a closer look

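In 13 of 96 groups of 4 series, 1 series stood apart from the other 3 by more than Dixon's critical value; chance gives this in about 1 in 20 groups. Of the 13 values, 7 came from series 1_2 of MDA-MB-231: DAD1 at -0.110, KDELR3 (NM_016657) at -8.41, SEC23B (NM_006363) at 9.92, SEC24A (NM_001252231) at -8.45, SEC24C (NM_004922) at 2.17, SEC61A2 at -1.63 and SRP68 at 0.111. In the other MDA-MB-231 series, SAR1B (NM_016103) stood at 0.999 in series 2_2 and SRPRB at 0.0734 in series 1_1. In MDA-LM2, PDIA4 stood at 0.0251 and SEC23A at 0.0557 in series 1_2, SEC24C (NM_198597) at 0.931 in series 2_1, and SEC24A (NM_001252231) at -1.52 in series 2_2. PDIA4 and SRPRB were called slower in MDA-LM2, and for both the lines do not overlap with these values included.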

How the results depend on the processing

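The numbers of members called slower and faster were 10 and 1, and of all transcripts 783 and 246. With the replicate block they were 1 and 0, and 310 and 31, with 25 members lower and 2 higher at an unadjusted p below 0.05 in limma. Deviations of same-numbered series had a rho between -0.00976 and 0.00696 over all transcripts, and 2 of 4 series correlated best with their own number. Such values cannot decide whether same-numbered series of the lines were handled together, which the labels do not state. With a correlation between series of the same second number in either line, the numbers called slower and faster were 13 and 1, and 904 and 301. With a correlation between like series, chosen after seeing the data, they were 5 and 0, and 385 and 37 (22 members lower and 1 higher at an unadjusted p below 0.05); within 1 of 0 as well, 0 and 0, and 0 and 0. With series centred on their medians, 3 members and 442 transcripts were faster, and 58.5% of all calls were slower against 76.1% as reported. The unequal-variance statistic called 139 transcripts faster. Leaving out 1 series in turn gave 5 to 15 members slower and 0 to 2 faster, and 457 to 1082 and 91 to 352 of all transcripts. The members' median in MDA-LM2 was 0.0414 within 1 of 0. Centred medians, relative to all transcripts by construction, were -0.104 for MDA-LM2 and -0.0687 for the parental line.

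Differences that changed sign, none of them called, were as follows; the cause was not tested. After centring, 10 members changed sign: COPG2 0.0157, SAR1A (NM_020150) 0.00388, SEC24A (NM_021982) 0.00895, SEC61A1 0.0226, SPCS1 0.00145, OST4 0.0183, RPN1 0.00280, RPN2 (NM_002951) 0.0182, SEC31A (NM_001077206) 0.00705 and SEC62 0.0190. Over the fits without 1 series the differences ranged as COPG2 (NM_012133) -0.0210 to 0.00531, KDELR3 (NM_016657) -0.0387 to 2.85, SEC23B (NM_032985) -0.0678 to 0.0296, SEC24A (NM_001252231) -0.0707 to 2.73, SEC24A (NM_021982) -0.0425 to 0.0239. The other ranges were SEC24B (NM_001042734) -0.114 to 0.135, SEC24B (NM_006323) -0.630 to 1.24, SEC24C (NM_004922) -0.619 to 0.114 and SEC61A1 (NM_013336) -0.0104 to 0.0142. Depth is unknown and sets no limit that could be stated.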
